A study of Mus musculus with 7 samples.

Results

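Lipid droplet coat and lipolysis transcripts were examined in livers of newborn mice that lack glycerol kinase and in livers of wild type mice. The genes were the perilipins Plin2, Plin3 and Plin5, the CIDE genes Cidea, Cideb and Cidec, the lipases Pnpla2 and Mgll, and the lipase regulators Abhd5 and G0s2. They were chosen by name: every probe set whose platform annotation gives one of these 10 symbols as its only gene was taken, which gave 17 probe sets of 45101 on the array and 10 genes of 18193 with a symbol. The knockout group comprised 4 livers of male glycerol kinase knockout pups, and the wild type group 3 livers of male wild type littermates of the same age. All 7 mice were C57BL/6J on day of life 1, an age chosen by the submitters because knockout pups then show no signs of the deficiency. Each liver was extracted and hybridised on its own Affymetrix mouse GeneChip. The sources used here do not say how the knockout allele was made or which pups shared a litter.

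Liver cells store surplus fatty acids as triglyceride in lipid droplets, whose surface carries perilipins that shield the lipid and CIDE proteins that let droplets fuse and exchange lipid. Breakdown starts with Pnpla2 (adipose triglyceride lipase), which Abhd5 activates and G0s2 inhibits, and ends with Mgll (monoglyceride lipase), which releases the last fatty acid and free glycerol. Glycerol kinase phosphorylates that glycerol, so that liver can reuse it for triglyceride or glucose. Newborn liver takes up much fat from milk and holds many droplets.

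The arrays resembled each other, with r between 0.930 and 0.985 over the probe sets tested, and median intensities between 92.5 and 108. Hepatocyte markers were bright, with a summed intensity of 173067 to 229994 over 6 genes in knockout and 178054 to 200727 in wild type, and 0 of 6 passed the test described below. Among them, the apolipoprotein gene Apob, did not overlap between groups by its brightest probe set, at 13214 to 24187 in knockout and 9993 to 12955 in wild type (log2 fold change 0.53, limma's adjusted p = 0.140). Summed red cell precursor markers were lower in knockout, at 40153 to 45026 over 5 genes against 50744 to 54162 in wild type. Of the 4 tested genes 2, Slc4a1 and Rhag, were called lower. Not called were Alas2 (log2 fold change -0.22, limma's adjusted p = 0.227) and Klf1 (-0.03). Klf1 overlapped between groups, at 5418 to 7520 in knockout and 5570 to 6562 in wild type. Hba-a1 was too dim to be tested, at 42.4 to 82.3 in knockout and 6.8 to 53.5 in wild type. Slc4a1 read 16106 to 18700 in knockout and 21989 to 23075 in wild type (log2 fold change -0.39), and Rhag 5850 to 7461 in knockout and 8659 to 9760 in wild type (-0.49). Neither was called under median scaling, where Rhag had an adjusted p of 0.140, and Slc4a1 was not called under quantile normalization either (0.0631). Summed endothelial markers were lower as well, at 6756 to 12089 over 5 genes against 12423 to 14905 in wild type. Knockout 3 was the lowest, and 0 of 5 were called. The largest part was Lyve1, at 2729 to 5705 in knockout and 5729 to 8071 in wild type. Stab2 did not overlap between groups either, while Kdr, Pecam1 and Cdh5 did. Summed T cell markers were lower too, at 126.6 to 223.7 over 4 genes against 241.7 to 263.9. Of these 4, 3 stayed under 100 in every array, and 0 were called. Fewer cells of a type and less RNA per cell cannot be told apart in whole liver, and the part of these shifts in the results below was not tested. Summed white fat markers were lower too, at 375.4 to 596.1 over 4 genes in knockout and 625 to 684 in wild type, with 0 called. Nearly all of that sum was the glucose transporter gene Slc2a4, which muscle also expresses, at 338.3 to 496.4 in knockout and 579.5 to 633.7 in wild type (log2 fold change -0.50, adjusted p = 0.139). The other 3 white fat markers stayed under 100 in every array, Adipoq at most 42.9 and Lep 24.6. Summed brown fat markers overlapped, at 155.7 to 376.7 over 4 genes in knockout and 150.2 to 231.2 in wild type, with Cox7a1 highest in knockout 3 (278.7) and the defining marker Ucp1 at most 15.1. Knockout 3 stood apart by pancreas transcripts, with intensities of 3163 for the protease precursor gene Ctrb1 and 497.9 for the carboxypeptidase gene Cpa1, against at most 12.3 and 17.8 in the other 6 arrays. Cel, a bile salt activated lipase gene of pancreas, was at 362.5 in knockout 3 and between 25.4 and 82 in the others. The results are therefore also given without knockout 3. The glycerol kinase transcript itself was not analysed here, so it gave no check of the labels.

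The coat gene Plin2, the droplet fusion gene Cideb and the lipase inhibitor gene G0s2 were higher in knockout livers, and the other genes were not called by their brightest probe set. Intensities were compared as log2(intensity + 16) with limma over the 22518 probe sets of above-median brightness, and a probe set was called at an adjusted p under 0.05. With each gene read by its brightest probe set, 3 of 10 were called, all 3 higher in knockout, against 4.76% of 11159 named genes called in either direction and 3.09% called higher. No gene was called lower by limma, and at an unadjusted p under 0.05 there were 5 higher and 1 lower, Cidea. The share of all tested genes at that unadjusted p was not counted, so these numbers have no background beside them. All 10 genes had a tested probe set, 14 of 17 probe sets in all, of which 4 were called, all higher, against a background of 4.24% (2.35% higher and 1.89% lower). The knockout and wild type ranges did not overlap in 7 of the 14, against 21.1% of all tested probe sets. These 7 include all 3 tested probe sets of Mgll, so they do not stand for 7 genes. The median log2 fold change of the 14 was 0.57, beside -0.03 over all tested probe sets. Of all calls 55.4% were higher in knockout, or 73.6% when arrays were scaled to equal medians. Without knockout 3 the same 3 genes, Plin2, Cideb and G0s2, were called.

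**Figure D1:**
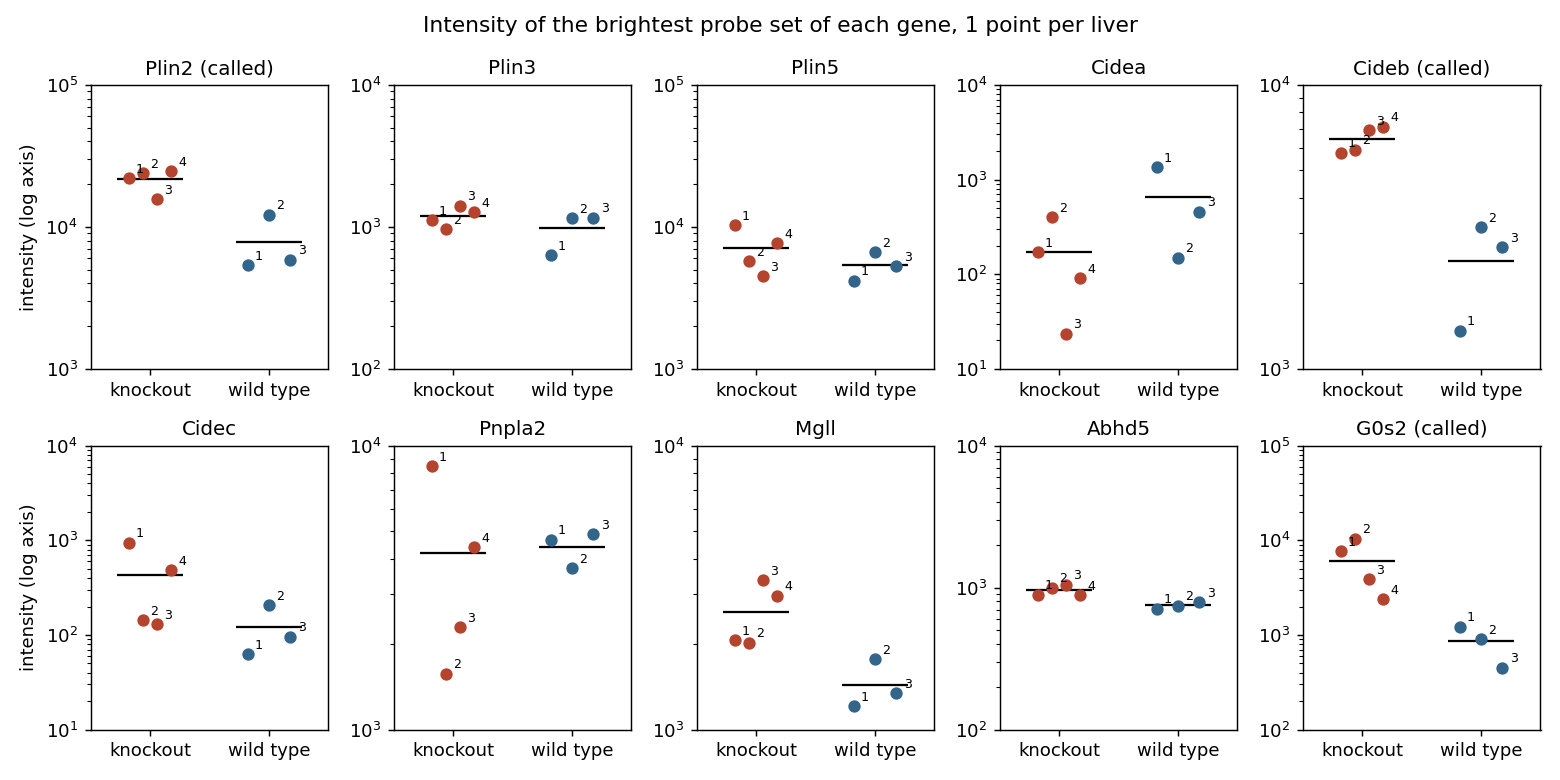
Intensity of the brightest probe set of each of the 10 genes on a log axis, with 1 numbered point per liver, knockout on the left and wild type on the right, and a bar at the group mean. The 2 groups are apart for Plin2, Cideb, Mgll, Abhd5 and G0s2 and overlap for Plin3, Plin5, Cidea, Cidec and Pnpla2.

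The 3 genes called lie on different chromosomes. Their promoters are shown because these were the genes called, as the 250 bases before the annotated start in RefSeq's GRCm38.p6, 5′ to 3′ on the gene's strand. Their levels did not run together across livers, since within the knockout group G0s2 was lowest in knockout 4, where Plin2 and Cideb were highest. Capitals mark exact matches, on either strand, to any of 6 searched motifs: the nuclear receptor direct repeat AGGTCANAGGTCA, its single hexamer AGGTCA, the E-box CACGTG, the GC box GGGCGG, the TATA box TATAAA and CCAAT. The hexamer is part of the direct repeat.
Plin2 (chr4:86670060-86670309, minus strand): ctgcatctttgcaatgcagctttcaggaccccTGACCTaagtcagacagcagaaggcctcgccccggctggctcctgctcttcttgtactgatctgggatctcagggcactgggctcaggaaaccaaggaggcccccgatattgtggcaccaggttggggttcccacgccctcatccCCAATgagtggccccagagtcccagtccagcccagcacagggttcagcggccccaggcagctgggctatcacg
Cideb (chr14:55758425-55758674, minus strand): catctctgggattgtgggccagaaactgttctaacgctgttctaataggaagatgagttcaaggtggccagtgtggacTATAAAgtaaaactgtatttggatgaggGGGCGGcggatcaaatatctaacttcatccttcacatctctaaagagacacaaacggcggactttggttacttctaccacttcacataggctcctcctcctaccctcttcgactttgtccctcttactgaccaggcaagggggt
G0s2 (chr1:193273189-193273438, minus strand): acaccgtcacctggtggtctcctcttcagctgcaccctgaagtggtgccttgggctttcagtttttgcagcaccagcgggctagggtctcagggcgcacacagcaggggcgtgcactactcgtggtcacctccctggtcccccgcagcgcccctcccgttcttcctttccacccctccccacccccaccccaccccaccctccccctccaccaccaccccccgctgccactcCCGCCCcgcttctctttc
The Plin2 window held the hexamer, on the other strand, with its first base 218 bases before the start and a CCAAT 73 bases before it. The Cideb window held a TATA box at 172 bases and a GC box at 144 bases, and the G0s2 window held 1 GC box at 18 bases. Of the 3 windows, Plin2 had 61.6% G and C, Cideb 47.2% and G0s2 67.2%. Among the 9 genes scanned (Cidea was not), the hexamer occurred in 3, against 14.0% of 32817 promoters of the same length, and a GC box in 7, against 32.7%. The E-box was found in 1, Mgll, against 6.02%, and CCAAT in 3, against 33.8%. The full direct repeat was in 0 of 9 genes and in 0.0335% of all promoters, and TATAAA was in 1 of 9, against 12.4%. Cidec, Mgll and Plin5 have several windows, and a gene was counted if any of its windows matched. The hexamer and CCAAT of Plin5 and the GC box and E-box of Mgll were not in all of their windows. The background shares count each promoter by itself, so counts by gene can come out higher and are not directly comparable with them. A match is only a match of letters.

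Among the coat genes, Plin2 rose and Plin3 and Plin5 were not called. Plin2, the main perilipin of hepatocytes and one that accompanies droplet load, had intensities of 22112, 23905, 15648 and 24731 in knockout 1 to 4, against 5362, 12179 and 5860 in wild type 1 to 3. The lowest knockout liver, knockout 3, was above the highest wild type liver. Plin2 averaged 21599 ± 4115 in knockout and 7800 ± 3800 in wild type (SD, n = 4 and 3), a log2 fold change of 1.55 ± 0.27 (SE, limma's adjusted p = 0.0157). Without knockout 3 it was 1.70 (adjusted p = 0.0115). The exact permutation p of 0.0286, two-sided, is the smallest that 35 splits of 7 arrays allow.

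Plin3, a perilipin that moves from the cytosol onto newly formed droplets, was at 1115, 966.1, 1410 and 1266 in knockout, against 629.3, 1155 and 1158 in wild type. Wild type 1 was low and the other 2 wild type livers lay among the knockout values. Its log2 fold change was 0.31 with a 95% interval of -0.20 to 0.82 (limma's adjusted p = 0.466). It became 0.03 without wild type 1.

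Plin5, which is known from oxidative tissues for linking droplets to mitochondria and binding Pnpla2 and Abhd5, had 2 tested probe sets that gave the same picture. The brighter one read 10321, 5738, 4514 and 7678 in knockout, against 4179, 6618 and 5264 in wild type. Knockout 1 and knockout 4 were above all wild type livers, while knockout 2 and knockout 3 lay within the wild type range. The log2 fold changes were 0.35 (95% interval -0.22 to 0.93, limma's adjusted p = 0.463) and 0.36 for the dimmer probe set (interval -0.31 to 1.04). Without knockout 3 they were 0.55 and 0.61 (adjusted p = 0.195 and 0.184), and without knockout 1 they were 0.15 and 0.10.

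**Figure D2:**
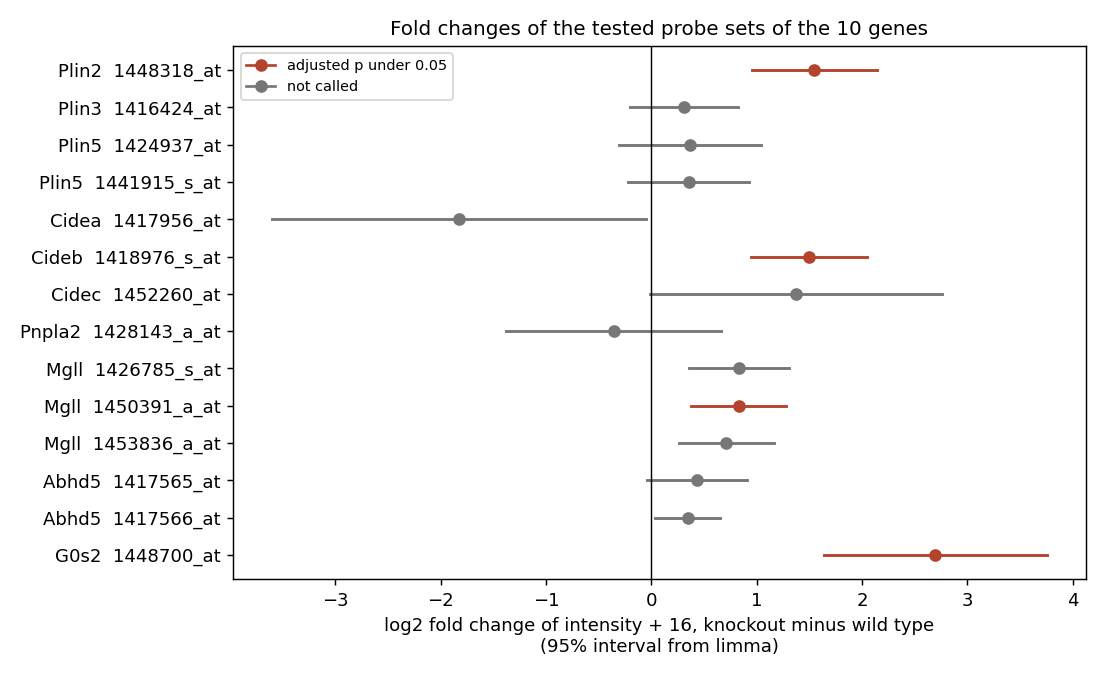
Log2 fold change, knockout minus wild type, with limma's 95% interval for each of the 14 tested probe sets of the 10 genes, coloured where the adjusted p was under 0.05. Intervals of the called probe sets of Plin2, Cideb, Mgll and G0s2 lie above 0, and those of Cidea, Cidec and Pnpla2 are the widest of the genes not called.

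The CIDE genes went different ways, and only Cideb was called. Cideb is the CIDE gene of healthy liver, where it takes part in droplet fusion and in the lipid loading of very low density lipoprotein. Its probe set read 5778, 5916, 6941 and 7127 in knockout, against 1361, 3156 and 2677 in wild type. The knockout livers lay close together, and each was well above the highest wild type liver. The log2 fold change was 1.50 ± 0.25 (SE, limma's adjusted p = 0.0130), and 1.46 without knockout 3. This is the 1 probe set of Cideb, of a type that can be shared between transcripts, and the gene overlaps Nop9 and Ltb4r2 in the annotation.

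Cidec, known from white fat and from fatty liver for building large droplets, was at 947.1, 144.1, 129.4 and 480.6 in knockout, against 62.9, 205.7 and 96.3 in wild type. Knockout 1 and knockout 4 were above every wild type liver, whereas knockout 2 and knockout 3 fell between wild type 2 and wild type 3. Its log2 fold change of 1.38 had a 95% interval of -0.01 to 2.76 (limma's adjusted p = 0.233), and the value was 0.85 without knockout 1 and 1.76 without knockout 3.

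Cidea, the CIDE gene of brown fat that also appears in fatty liver, leaned the other way. It was at 170.0, 398.7, 23.5 and 90.2 in knockout, against 1354, 149.9 and 458.3 in wild type. Its values spanned more than those of any other of the 10 genes, and the groups overlapped through wild type 2. The log2 fold change of -1.83 had a 95% interval of -3.60 to -0.05 and was not called (limma's adjusted p = 0.217), and it was -1.06 without wild type 1 and -1.24 without knockout 3. Within groups the SD of Cidea was 1.47 in log2 units, larger than that of 99.9% of the tested probe sets, and that of Cidec, at 1.13, larger than that of 99.7%. Of the fat cell markers given above, Slc2a4 was lower in every knockout liver than in any wild type liver, which Cidea was not, while Adipoq, Lep and Ucp1 were dim in all arrays. Their part in the values of Cidea was not tested.

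G0s2 showed the largest fold change of the 10 genes. This small protein binds Pnpla2 and blocks it, and in liver it slows triglyceride breakdown. Intensities were 7657, 10382, 3861 and 2396 in knockout, against 1221, 897.2 and 449.5 in wild type. Every knockout liver was above every wild type liver, although knockout 2 was far above knockout 4. The means were 6074 ± 3628 in knockout and 855.8 ± 387.3 in wild type (SD, n = 4 and 3), and the log2 fold change was 2.70 ± 0.48 (SE, limma's adjusted p = 0.0172). It was 2.84 without knockout 3 (adjusted p = 0.0207).

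The lipase that G0s2 acts on was not called. Pnpla2 was at 8480, 1572, 2297 and 4396 in knockout, against 4661, 3697 and 4871 in wild type. The wild type livers were alike, and the knockout livers held both the highest and the lowest values of the 7. The log2 fold change was -0.36 with a 95% interval of -1.38 to 0.66 (limma's adjusted p = 0.699), and it was 0.010 without knockout 2. A second probe set was too dim to be tested, at 34.3 to 59.9 in knockout and 56.1 to 77.6 in wild type. Within each array, the log2 level of G0s2 minus that of Pnpla2 was -0.15, 2.71, 0.74 and -0.87 in knockout, against -1.92, -2.02 and -3.39 in wild type. This difference between 2 probe sets has no meaning as a level. It was above the wild type values in all 4 knockout livers, as G0s2 by itself was, and whether the 2 changes differ was not tested.

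Abhd5, the activator of Pnpla2, moved little. Its brightest probe set read 893.7, 997.5, 1050 and 887.7 in knockout, against 712.3, 748.9 and 787.1 in wild type. These values were tight and did not overlap between groups, and the log2 fold change was 0.34 with a 95% interval of 0.04 to 0.65 (limma's adjusted p = 0.184). The other tested probe set was at 0.43 (adjusted p = 0.273), with overlap, and a dim one stayed under 50, at 9.9 to 47.8 in knockout and 2.7 to 18.9 in wild type.

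Mgll, which completes triglyceride breakdown, was higher in every knockout liver by each of its 3 bright probe sets and sat at the edge of the threshold. The brightest read 2064, 2023, 3365 and 2963 in knockout, against 1208, 1769 and 1342 in wild type, and the ranges did not overlap. Its log2 fold change was 0.83 ± 0.21 (SE, limma's adjusted p = 0.0578). The second was called, at 0.83 ± 0.20 (adjusted p = 0.0497), and the third was at 0.71 ± 0.20 (adjusted p = 0.0778). Without knockout 3 the 3 values were 0.70, 0.76 and 0.58 (adjusted p = 0.0834, 0.0803 and 0.112). The call of the second probe set was kept in 2 of 16 alternatives, and its highest adjusted p was 0.194, without wild type 3. A further probe set was dim, at 6.2 to 33 in knockout and 13.2 to 45 in wild type.

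**Figure D3:**
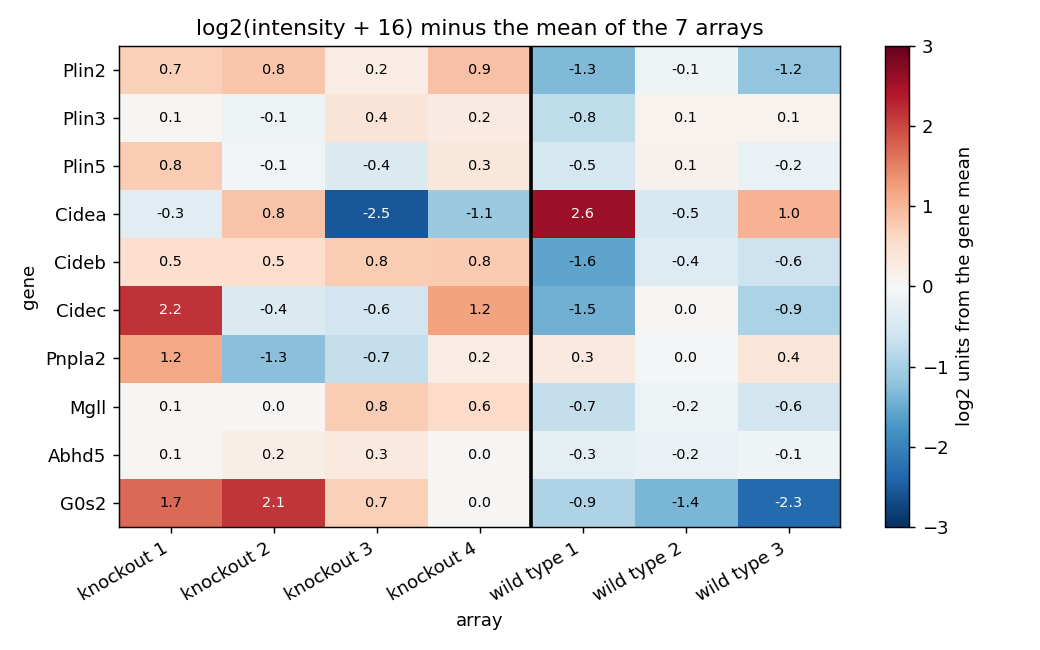
Log2(intensity + 16) of the brightest probe set of each gene, minus the mean of that gene over the 7 arrays, with knockout arrays left of the line and wild type arrays right of it. G0s2, Cidea and Cidec span the most colours, and Cidea is highest in wild type 1, where 7 of the other genes are at their lowest.

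Livers of the same group differed in ways that several genes shared. Wild type 1 had the lowest intensity of all 7 arrays for 7 of the 10 genes, and the highest for Cidea. As 8 of the 10 genes were higher in knockout, the lowest array was mostly a wild type liver in any case. How often each array was lowest or highest over all tested probe sets was not counted, so the counts here have no background. Among wild type livers, wild type 2 was highest for 5 genes, namely Plin2, Plin5, Cideb, Cidec and Mgll. Knockout 1 was highest of all arrays for Plin5, Cidec and Pnpla2, and knockout 4 was second for those 3 within the knockout group. Knockout 3, the array with pancreas transcripts, was lowest within its group for Plin2, Plin5, Cidea and Cidec and highest for Plin3, Mgll and Abhd5. Time since feeding, litter and array batch were not used here.

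The calls were strongest for Cideb, which passed in all 7 fits that left out 1 array, with adjusted p of 0.0128 to 0.0473 and log2 fold changes of 1.14 to 1.74. Plin2 passed in 5 of 7 and failed without wild type 1 or wild type 3 (limma's adjusted p = 0.0573 and 0.0815), with 1.33 to 1.92. G0s2 passed in 5 of 7 and failed without wild type 2 or wild type 3 (adjusted p = 0.0516 and 0.0822), with 2.30 to 3.07. By the brightest probe set, Mgll passed in 1 of 7, without knockout 1 (adjusted p = 0.0464). The number of genes called was thus between 1 and 4, and without wild type 3 it was 1, Cideb.

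**Figure D4:**
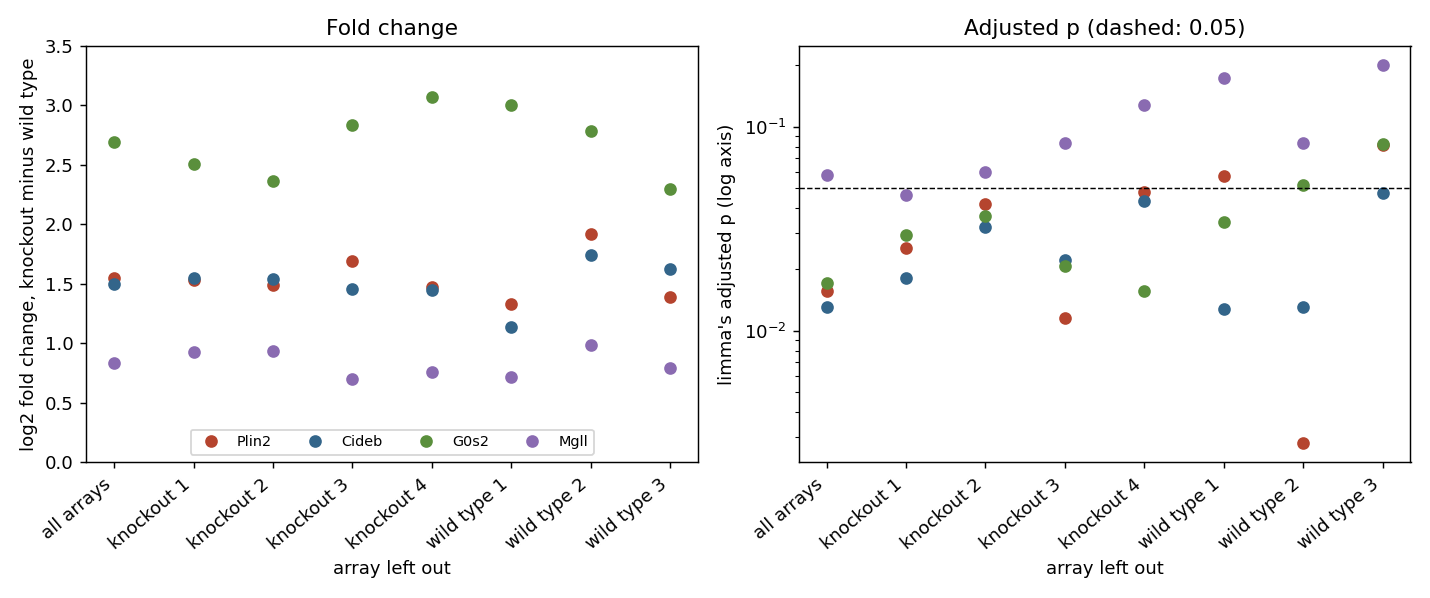
Log2 fold change (left) and limma's adjusted p on a log axis (right) of Plin2, Cideb, G0s2 and the brightest probe set of Mgll, with all arrays and with each array left out in turn. All fold changes stay above 0, and Cideb alone stays under the dashed line at 0.05 in every fit.

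Transcripts with the most similar profiles were found by the root mean square difference in log2 units, after each profile was centred on its mean over 7 arrays. The 3 nearest to Plin2 were Slc25a42, a mitochondrial carrier of coenzyme A, at 0.22, Hsdl2 at 0.23 and Inhbc, an activin subunit made by hepatocytes, at 0.25. Those nearest to Cideb were closer, namely Slc25a20, the mitochondrial carnitine and acylcarnitine carrier, at 0.16, the acyl-CoA dehydrogenase gene Acad11 at 0.16 and the uptake transporter Slco1b2 at 0.16. Slc25a20 read 6526, 6702, 8483 and 8390 in knockout, against 2072, 4432 and 3067 in wild type, so that wild type 1 was the lowest and wild type 2 the highest of the wild type livers, as for Cideb. G0s2 had no profile as near, and its closest were Gpd1, the cytosolic glycerol 3-phosphate dehydrogenase, at 0.62, Phlda2 at 0.63 and Chst13 at 0.71.

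Other genes of lipid droplets and neutral lipid breakdown were read from the same fit. The list held 44 genes, of which 41 were named on the array and 36 were bright enough for the test. Of these, 7 were called higher and 0 lower (background 3.09% higher and 1.67% lower), with a median log2 fold change of 0.19. The same background holds for the called genes of each group of the list below. In all 26 were higher and 10 lower. At an unadjusted p under 0.05 there were 11 higher and 4 lower (Lpin1, Lpin2, Foxo1 and Ppargc1a). The shares of all tested genes by direction and at that unadjusted p were not counted, so these numbers have no background. The count of called genes was 7 without knockout 3, and 4 without wild type 3. The 7 called with all arrays include Mettl7b, which entered the test through its knockout values, as described below. Without a brightness filter 6 of 41 genes were called, all higher and Mettl7b not among them. In that fit 473 of 45037 probe sets were called, a count by probe set that is not directly comparable with a count by gene.

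Of 11 tested droplet proteins 2 were called higher, Hsd17b11 and, less firmly, Mettl7b. Hsd17b11, a dehydrogenase that sits on droplets, was at 18634, 16700, 15007 and 18289 in knockout, against 7987, 8357 and 8810 in wild type. Both groups were tight and far apart (log2 fold change 1.03 ± 0.11, limma's adjusted p = 0.0020), and a dimmer probe set was called at 1.59. Mettl7b, another droplet protein, was at 359.5, 438.8, 2800 and 407.4 in knockout, against 42.3, 109.2 and 79.1 in wild type. Knockout 3 was far above the rest, and the log2 fold change was 2.92 with it and 2.23 without it (limma's adjusted p = 0.0326 and 0.0053). The call held in 2 of 7 fits that left out 1 array, being lost without knockout 2, knockout 4 or any of the wild type livers (adjusted p up to 0.120), and it was lost without a brightness filter (0.0639) and with eBayes without a trend (0.0515). Its wild type mean of 76.9 was dim, so that it entered the test through its knockout values and had to differ to do so. Hsd17b13, a liver droplet protein related to Hsd17b11, was at -0.09 (95% interval -0.44 to 0.25). Hilpda, which like G0s2 inhibits Pnpla2, was at 412.8, 643.3, 451.2 and 583.6 in knockout, against 1318, 796.2 and 461.1 in wild type, with a log2 fold change of -0.60 (adjusted p = 0.292) that was not called.

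Of 11 tested lipases and esterases 8 were higher and 3 were called higher. Abhd6, a monoacylglycerol hydrolase like Mgll, was at 3228, 1765, 2021 and 2696 in knockout, against 541.7, 767.4 and 680.6 in wild type. Each knockout liver was well above the wild type range (log2 fold change 1.82 ± 0.22, limma's adjusted p = 0.0035). Lipa, the lysosomal acid lipase, was at 5437, 5610, 5240 and 7742 in knockout, against 2065, 2309 and 2199 in wild type, or 1.43 ± 0.15 on the log2 scale (adjusted p = 0.0020), and its 2 other probe sets were called at 1.19 and 1.20. Ddhd2, a lipase of neutral lipids and phospholipids, was at 1313, 1128, 1343 and 1283 in knockout, against 660.9, 793.9 and 712.7 in wild type. The groups were apart (log2 fold change 0.80 ± 0.14, limma's adjusted p = 0.0172), but the call held in 4 of 7 fits that left out 1 array. It was lost without knockout 4 (0.0501), wild type 1 (0.0611) or wild type 3 (0.0959). Its other tested probe set was not called, at 148.7, 138.2, 137.1 and 141.4 in knockout, against 149.7, 94.6 and 92.8 in wild type (0.32). Ces1g was at 0.85 and not called (adjusted p = 0.208), and 0.52 without knockout 3, where it was highest. Lipe, the hormone-sensitive lipase that acts between Pnpla2 and Mgll, was at 0.09 (95% interval -0.34 to 0.52).

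**Figure D5:**
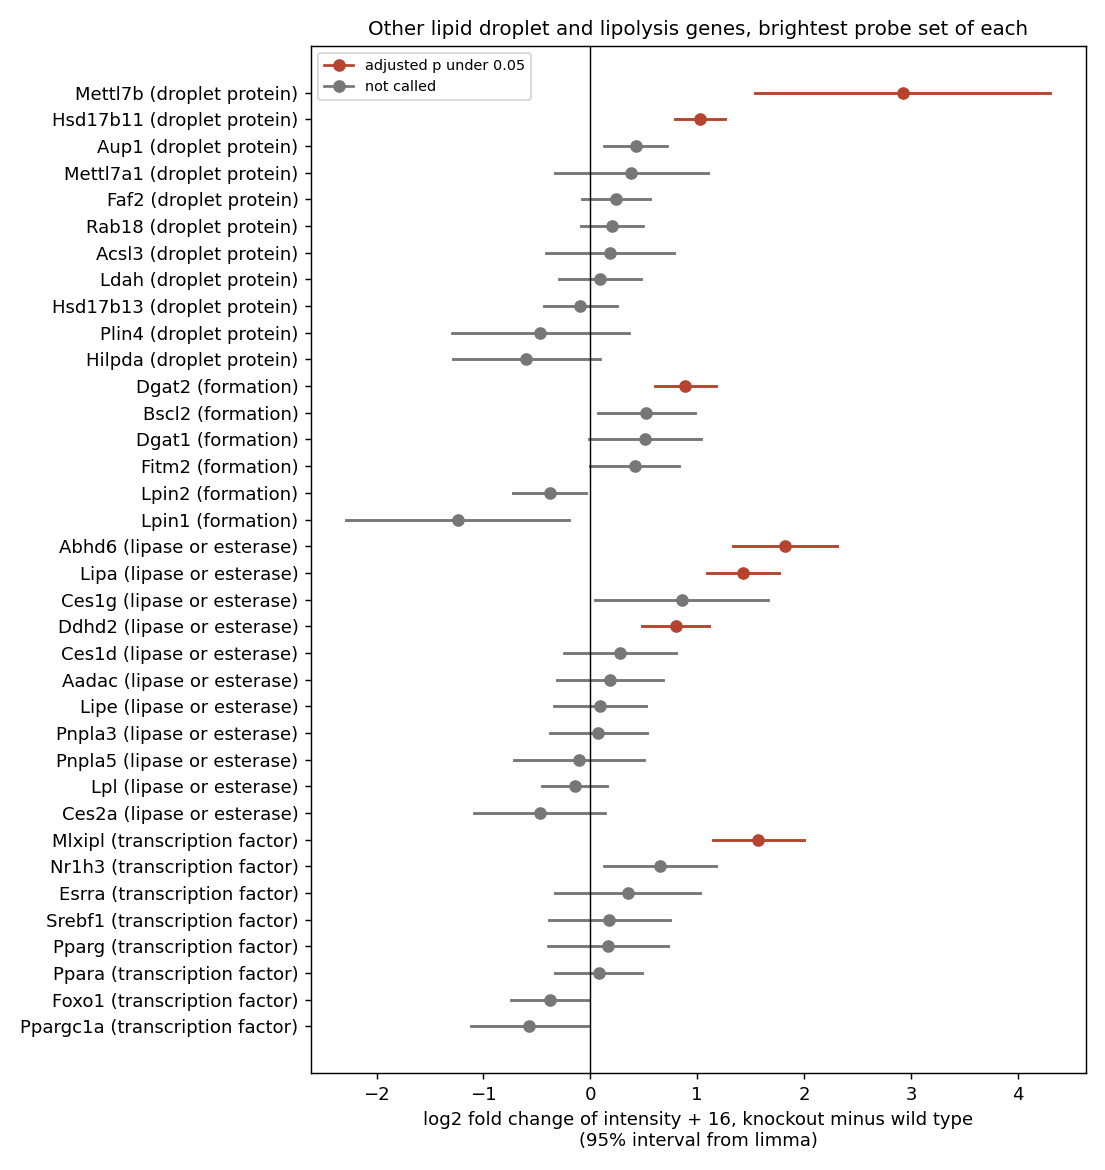
Log2 fold change, knockout minus wild type, with limma's 95% interval for the brightest probe set of 36 other lipid droplet and lipolysis genes, grouped by role and coloured where the adjusted p was under 0.05. The 7 called genes, Mettl7b, Hsd17b11, Dgat2, Abhd6, Lipa, Ddhd2 and Mlxipl, all lie above 0.

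Of 6 tested droplet formation genes 4 were higher and 1 was called higher, Dgat2, which adds the last fatty acid to triglyceride. It was at 9543, 10248, 8064 and 7453 in knockout, against 4499, 4886 and 4773 in wild type. Its call (0.89 ± 0.13, limma's adjusted p = 0.0083) was lost without wild type 3. Lpin1, a phosphatidate phosphatase that makes the diglyceride for Dgat2, was at 6498, 1930, 9132 and 10019 in knockout, against 14729, 11260 and 15816 in wild type. The groups did not overlap, and knockout 2 was by far the lowest. For Pnpla2 knockout 2 was also the lowest, but less far apart, at 1572 beside 2297 in knockout 3. The log2 fold change of Lpin1, -1.24, was not called (limma's adjusted p = 0.160), and it was -0.71 without knockout 2. Lpin2 leaned the same way, at -0.38 (adjusted p = 0.183), with dimmer probe sets at -0.56, -0.58 and -0.76. The last of these had no overlap of the groups (adjusted p = 0.0663), and none was called. Of 8 tested transcription factors known to act on the 10 genes 1 was called higher, Mlxipl, the carbohydrate response factor ChREBP. It was at 1107, 1415, 1935 and 1485 in knockout, against 541.1, 435.6 and 466.1 in wild type (1.57 ± 0.19, limma's adjusted p = 0.0038). Nr1h3, the oxysterol receptor LXR alpha, was at 0.65 and Ppara, which drives Plin2 and many fat oxidation genes, at 0.08 (adjusted p = 0.145 and 0.849), with 2 further Ppara probe sets at 0.31 and 0.39 that were not called. Of the 8 transcription factors 6 were higher and 2 lower. The lower were Ppargc1a at -0.57 and Foxo1 at -0.38, neither called (limma's adjusted p = 0.215 and 0.213). Other tested probe sets of Ppargc1a were at -0.27 to -0.79, and those of Foxo1 at -0.04 and 0.02.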

How the data were processed

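Messenger RNA of 7 livers was measured on 1 array each, 4 knockout and 3 wild type, grouped by the sample titles. The deposited values are intensities on a linear scale, and the submitters' processing notes name GCOS without a version. The probe summary method was not given in the sources used here. Every array had a trimmed mean of 500.003 in the deposited intensities, so all had been scaled to 1 target, which hides any change of total messenger RNA. The number of arrays limits the precision.

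After 64 control probe sets were left out, log2(intensity + 16) was fitted by limma 3.58.1 (R 4.3.3; lmFit, then eBayes with a trend, without covariates) as the difference of knockout from wild type. The fit covered the 22518 probe sets whose mean exceeded the median, with Benjamini-Hochberg adjustment over all of them. Folds on this scale understate changes of dim probe sets. Probe sets with 1 symbol were named from the platform annotation, and sequences and gene overlaps came from RefSeq tables. The genes and lists were chosen with earlier results of these data known. Values per array are given for the 10 genes and for most of the other genes described, and ranges for the cell type markers. The text names, from the other lipid droplet genes, those called and the 4 largest changes not called, with a few others chosen after their values were seen, and the 3 nearest profiles of each called gene. The steps were tested on simulated data. Figures were drawn with matplotlib 3.10.9. Alternatives covered the offset, scaling, filter, variance model, replicate block, threshold, probe set choice and each array left out.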

Additional observations from a re-analysis of the deposited data

Results flagged for a closer look

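Of 31 probe sets examined (the 17 of the 10 genes, the other lipid droplet genes named and the pancreas markers), 4 had 1 knockout liver whose gap to the nearest, divided by the range of the 4 in log2 units, exceeded Dixon's 95% critical value. Chance gives this in about 5% of groups, and groups of 3 were not examined. The count cannot be set against that rate, because the lists were chosen with earlier results of these data known. The other lipid droplet genes examined were also taken for their calls or fold changes. All 4 were in knockout 3. Ctrb1 was at 3163 there and at 5.1 to 10.9 in the other knockout livers, and Cpa1 at 497.9 and at 5.8 to 8.8. Mettl7b was at 2800 in knockout 3 and at 359.5 to 438.8 in the others, and Ces1g at 402.6 and at 139.1 to 165.5. No probe set of the 10 lipid droplet coat and lipolysis genes had such a liver.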

How the results depend on the processing

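The 3 genes called by their brightest probe set, Plin2, Cideb and G0s2, were called under each other offset, scaling, filter and variance model and under the replicate block, and averaging the probe sets of each gene also gave 3 calls. Without probe sets of shared type, 2 were called, Cideb having no other. Leaving out 1 array gave 1 to 4 called genes, 1 to 6 called probe sets of the 10 genes, 4 to 7 called genes of the other lipid droplet list (without wild type 1, 1 of 6 was lower, Ces2a) and 127 to 1006 called probe sets in all, against 955. That last count was 473 without a filter, 584 with eBayes without a trend, 351 with the replicate block and 2032 at an adjusted p under 0.10. Pnpla2 ranged between -0.80 without knockout 1 and 0.010 without knockout 2, where its sign changed. Deviations of knockout and wild type livers of the same replicate number correlated at 0.09, -0.06 and 0.06. Those of livers of unlike number correlated at -0.13 to 0.12. With so few arrays these values cannot decide whether replicate numbers pair the livers. Knockout 4 has no wild type liver of its number, so under the replicate block that array adds nothing to the difference. Plin2, Cideb and G0s2 were at 1.48, 1.45 and 3.07 both with the block and without knockout 4. The block is therefore no check on all 7 arrays. With the replicate block Ddhd2 and the second Mgll probe set were not called (limma's adjusted p = 0.0779 and 0.136), and both calls were also lost without knockout 4. The causes were not tested. Probe sets under the median brightness were described only.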
